A study of Mus musculus with 6 samples.

Results

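The genes described here encode the NRF2 pathway and the enzymes of glutathione, thioredoxin and NADPH metabolism, chosen as a list of 44 antioxidant and detoxification genes and read from the probe sets that the platform annotation assigns to a single gene symbol, with the brightest probe set standing for each gene. Of the 44 genes, 38 had such a probe set, out of 22180 genes in all. The remaining 6 were not analysed here: Gstm5, Prdx1, Tkt and Ftl1 are listed only together with other genes, and Prdx6 and G6pdx have no probe set in the annotation used here. Of the 38, Gpx2 and Mgst1 lay among the 40% of genes with the lowest mean signal and were not tested, which left 36 of 13308 tested genes.

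The cells were mouse inner medullary collecting duct (IMCD) cells, an epithelial line of the kidney, stably transduced with a lentivirus whose bicistronic vector encodes GFP and ILK. ILK (integrin-linked kinase) is a pseudokinase that joins integrins to actin at focal adhesions. The ILK-T173I group (3 arrays) carried the missense variant T173I, and the wild-type ILK group (3 arrays) carried the unchanged protein. Both groups were given EGF at 20 ng/ml for 15 minutes and incubated for a further 1 hour, so no group lacked EGF or the ILK vector. The labels do not say how many stable lines make up a group; if each is a single line, effects of the line and of the variant cannot be told apart.

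NRF2, encoded by Nfe2l2, is a transcription factor that KEAP1 holds in the cytoplasm and marks for degradation. Oxidants and electrophiles modify KEAP1, and NRF2 then accumulates and binds antioxidant response elements together with small MAF proteins, while BACH1 competes for the same elements as a repressor. Its targets make and recycle glutathione, supply NADPH, conjugate and export reactive compounds and break down heme. In the kidney, cells of the inner medulla live at low oxygen and high osmolality. NRF2 protein activity is controlled largely after translation, which RNA levels do not measure.

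Values are log2 array signals after RMA, and each difference is the T173I mean minus the wild-type mean on that scale. The T173I arrays were less alike than the wild-type arrays (correlations of 0.964 to 0.983 and of 0.989 to 0.993 over the tested genes). On the first principal component (57.4% of the variance), T173I replicate 1 lay among the wild-type arrays, at -11.4. T173I replicate 2 was the extreme array there, at 38.3, against 15.8 for replicate 3. In the fit with weighted arrays, T173I replicates 2 and 1 had the lowest weights (0.36 and 0.41). Of 19 markers of collecting duct epithelium, 15 passed the filter, among them Cdh1 at 11.30 and Pax2 at 9.53 in both groups. Aqp3, Aqp4, Gata2 and Hoxd3 did not. Passing the filter does not mark a cell type, as 2 of 5 proximal tubule, 2 of 4 intercalated and 2 of 6 fibroblast markers passed too. No marker of the loop and distal tubule or of endothelium did. The wild-type mean of Aqp2, at 6.07, lay below those of the intercalated marker Foxi1 (6.28) and the fibroblast marker Col1a1 (6.17). The groups did not overlap for the transcription factor Gata3 or the keratins Krt8 and Krt18, which had differences of -0.78, 0.64 and 0.44 (limma adjusted p = 0.45 each); the part of these markers in the results was not tested. No probe set belongs to Ilk alone (3 list it with another gene), so the introduced ILK was not checked. Of 4 leukocyte markers only Cd68, a lysosomal protein, passed the filter; it had a difference of 1.10, while Ptprc, the pan-leukocyte marker, was at 3.55 to 3.81 on the T173I arrays and 3.64 to 3.73 on the wild-type arrays, among the dimmest 40%.

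The NRF2 and glutathione genes did not move as a block. Gclm, Gclc, Me1, Nqo1, Hmox1 and Txnrd1 were higher on every T173I array than on any wild-type array, Txnrd1 by only 0.028 at the closest pair. Srxn1, Osgin1 and Gsta4 had overlapping groups, Gsta4 by only 0.0037 and with a difference of 0.80. The mu-class transferases Gstm1 and Gstm2 and the epoxide hydrolase Ephx1 were low on T173I replicates 2 and 3 and high on replicate 1. None of the 36 tested members passed the threshold in limma's test over all genes (0 at an adjusted p under 0.05, against 0% of all tested genes), and the lowest adjusted p of a member was 0.45. Before adjustment, 5 members had a p under 0.05, namely Gclm, Gsta4, Me1, Nqo1 and Hmox1, all higher in T173I. Nqo1 passed the filter on dim genes only through the T173I arrays, so it had to differ. Its mean log2 was 6.36 in T173I and 5.20 in wild type, against the filter's 5.37. Of the 34 members with both means above 5.37, 4 had such a p. The share of all tested genes under the same condition was not counted. Together the 5, Nqo1 included, are 13.9% of the tested members, against 10.2% of all tested genes in either direction, 4.88% in the upward and 5.31% in the downward one. The members were chosen with earlier results of these data known, so these shares are not independent evidence of a difference. Of the tested members 20 had positive and 16 negative differences, a share of 55.6% positive against 47.4% of all tested genes. Their median difference was 0.0088, against -0.011 over all tested genes, and their median absolute difference 0.18, against 0.12.

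**Figure D1:**
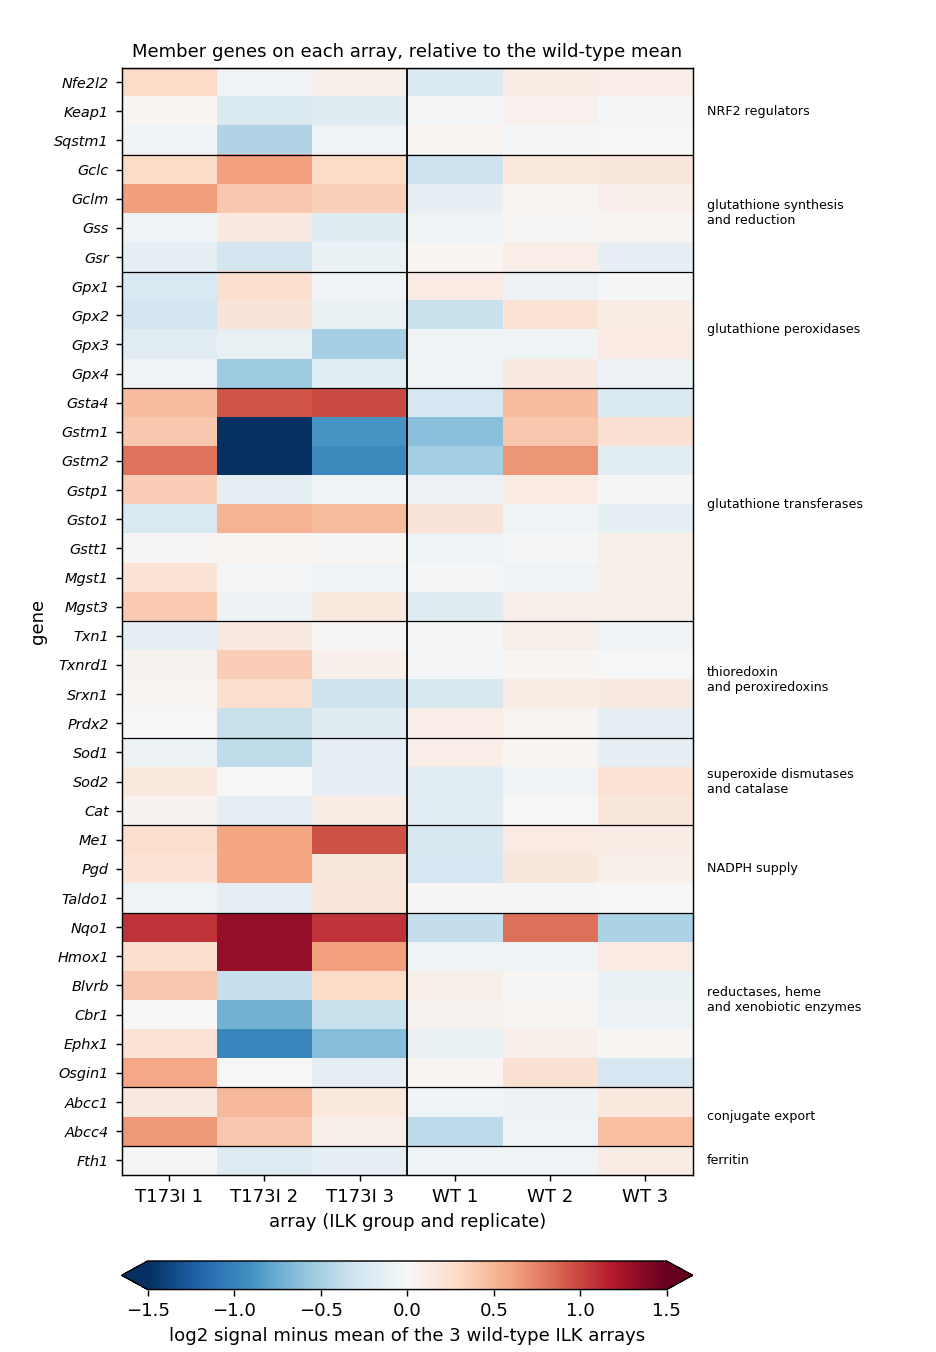
Log2 signal of the 38 measured genes (rows, grouped by branch) on each array (columns, T173I left and wild type right) minus the mean of the 3 wild-type arrays; the colour scale ends at 1.5 either way, which Gstm1 and Gstm2 exceed on T173I replicate 2. Gclc, Gclm, Me1, Nqo1 and Hmox1 are red on all 3 T173I arrays, and Gstm1, Gstm2 and Ephx1 are red on T173I replicate 1 and blue on replicates 2 and 3.

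In 8 tested members the groups did not overlap, a share of 22.2%, against 15.2% of all tested genes. T173I was higher in 6 of them (Gclc, Gclm, Txnrd1, Me1, Nqo1 and Hmox1; 16.7%, against 7.23% of all tested genes). T173I was lower in Sqstm1 and Gpx3 (5.56%, against 7.95%). Gpx3 passed the filter only through the wild-type arrays. Its T173I mean of 5.24 lay under the filter value and its wild-type mean above it. Without Gpx3 and Nqo1 the counts are 5 higher and 1 lower of 34. Such counts were not made for all tested genes with both means above the filter value. The shares of 7.23% and 7.95% cover all tested genes and are not a like comparison for them. The count of 8 depended on single arrays: it was 20 without T173I replicate 1 (55.6%, against 39.6% of all tested genes) and 15 without wild-type replicate 3 (41.7%, against 26.8%). Without T173I replicate 1, 0 members passed the adjusted threshold, against 1.17% of all tested genes, and 12 members had an unadjusted p under 0.05, a share of 33.3%, against 22.1% of all tested genes.

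The promoters of 5 members are shown: that of Nfe2l2 because it encodes the regulator, although its groups overlapped, those of Gclm and Me1, whose T173I values were all higher, Nqo1, which had the largest positive difference, and Gstm2, which had the largest negative one. Each is the RefSeq window (build GRCm38.p6) of 250 bases before to 50 bases after an annotated start, read 5′ to 3′ on the gene's strand. Me1 has 2 such windows, of which the one with a match is shown. Capitals mark the core letters of the antioxidant response element, TGACNNNGC, on either strand. Gclc, Txnrd1 and Hmox1, whose T173I values were also all higher, are not shown. The core was found for Txnrd1, and none was found for Gclc or Hmox1.
Nfe2l2, chr2:75704614-75704913, minus strand: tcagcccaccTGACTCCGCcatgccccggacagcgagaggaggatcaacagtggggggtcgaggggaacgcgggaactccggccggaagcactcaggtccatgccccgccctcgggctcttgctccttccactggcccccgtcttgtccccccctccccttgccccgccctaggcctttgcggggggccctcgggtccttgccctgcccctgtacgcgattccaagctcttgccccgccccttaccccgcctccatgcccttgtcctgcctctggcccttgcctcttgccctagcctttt
Gclm, chr3:122245307-122245606, plus strand: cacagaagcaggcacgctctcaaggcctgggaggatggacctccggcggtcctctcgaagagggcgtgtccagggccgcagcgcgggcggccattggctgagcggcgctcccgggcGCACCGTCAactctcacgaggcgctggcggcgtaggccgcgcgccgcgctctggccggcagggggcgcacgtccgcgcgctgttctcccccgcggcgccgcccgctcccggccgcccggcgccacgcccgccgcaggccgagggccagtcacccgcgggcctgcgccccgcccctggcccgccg
Me1, chr9:86695865-86696164, minus strand: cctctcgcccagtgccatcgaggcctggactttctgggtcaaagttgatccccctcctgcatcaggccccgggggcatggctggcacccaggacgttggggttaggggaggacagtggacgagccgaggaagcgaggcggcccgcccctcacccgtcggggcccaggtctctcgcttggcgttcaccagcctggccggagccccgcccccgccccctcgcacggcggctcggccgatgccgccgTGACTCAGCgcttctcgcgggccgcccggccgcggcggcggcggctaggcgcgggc
Nqo1, chr8:107403156-107403455, minus strand: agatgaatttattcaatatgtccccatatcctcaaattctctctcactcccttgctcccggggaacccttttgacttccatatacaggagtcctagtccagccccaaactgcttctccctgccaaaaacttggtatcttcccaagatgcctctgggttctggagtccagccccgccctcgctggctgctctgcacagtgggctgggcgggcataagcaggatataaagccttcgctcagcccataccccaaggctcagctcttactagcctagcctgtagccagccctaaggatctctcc
Gstm2, chr3:107986371-107986670, minus strand: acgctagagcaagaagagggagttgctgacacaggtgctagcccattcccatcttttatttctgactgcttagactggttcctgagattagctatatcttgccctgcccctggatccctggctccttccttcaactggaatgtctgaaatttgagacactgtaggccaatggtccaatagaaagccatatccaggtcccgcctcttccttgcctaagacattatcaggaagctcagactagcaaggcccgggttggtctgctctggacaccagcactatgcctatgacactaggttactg
The match in Me1, TGACTCAGC, begins 6 bases before the start and also holds the letters of the AP-1 element, TGANTCA, to which factors such as FOS and JUN bind. The match in Gclm, GCACCGTCA, lies on the opposite strand and begins 134 bases before the start, and that in Nfe2l2, TGACTCCGC, begins 240 bases before it. The windows of Nqo1 and Gstm2 hold neither run of letters. Only these 300 bases were read, so a window without the core does not show that the gene lacks the element.

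Of the 44 genes, 38 had a promoter window, 50 windows in all. The antioxidant response element core was found in 12 of these 38 genes (31.6%), against 14% of 27025 genes with a window; by window the shares were 26% and 12.4%. The 12 genes were Abcc4, G6pdx, Gclm, Gstm5, Me1, Mgst1, Nfe2l2, Pgd, Prdx1, Sod1, Srxn1 and Txnrd1. The AP-1 letters were found in Gstm5, Gstp1, Me1, Osgin1, Prdx1 and Srxn1, 6 of 38 genes (15.8%), against 8.97% of all genes, and the run that holds both, TGACTCAGC, in Me1 and Prdx1 (5.26%, against 0.503%). Of the 8 tested members with the core, 6 had positive differences (Me1 0.60, Gclm 0.46, Abcc4 0.38, Pgd 0.32, Txnrd1 0.17 and Nfe2l2 0.10) and 2 negative ones (Sod1 -0.20 and Srxn1 -0.0048). Of the 6, only Me1, Gclm and Txnrd1 had groups that did not overlap. Of the 23 tested members with a window and no core, 10 had positive and 13 negative differences. Of all tested genes 47.4% had positive differences, and the share among all genes with the core was not counted. The 2 sets of members were not tested against each other. This split rests on the windows alone and does not sort NRF2 targets from other genes: Nqo1, a standard readout of NRF2, falls in the set without the core.

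The 3 regulators among the members had differences of -0.19 to 0.10, and none passed the adjusted threshold. The repressor Bach1, from the wider pathway list, had a difference of -0.46 and is described further below. Other regulators on that list went either way. The small MAF genes Mafg, Maff and Mafk had differences of 0.29, 0.14 and -0.0024. Bach2, Nfe2l1, Cul3 and Btrc had differences of -0.11, -0.054, 0.021 and 0.097. Nfe2l2 was at 10.50, 10.16 and 10.30 on T173I replicates 1 to 3, against 10.01, 10.32 and 10.31 on wild-type replicates 1 to 3, a difference of 0.10 (95% interval -0.21 to 0.41) that was 0.00030 when wild-type replicate 1 was left out and 0.012 when T173I replicate 1 was. The groups overlapped, with the highest value on T173I replicate 1 and the lowest on wild-type replicate 1. Keap1, the adaptor that directs NRF2 to a ubiquitin ligase, was at 8.08, 7.84 and 7.88 on the T173I arrays and at 8.03, 8.12 and 8.02 on the wild-type arrays, with T173I replicates 2 and 3 below and replicate 1 within the wild-type range. Its brighter probe set gave a difference of -0.13 (95% interval -0.35 to 0.10) and its dimmer one a difference of 0.27, so no direction was set for Keap1; the brighter one gave -0.20 without T173I replicate 1 and -0.077 without replicate 2. Sqstm1, which encodes the autophagy receptor p62 and can draw KEAP1 away from NRF2, was at 11.50, 11.11 and 11.49 on the T173I arrays, against 11.58, 11.54 and 11.54 on the wild-type arrays. The T173I values of Sqstm1 were all lower, by only 0.040 at the closest pair and with T173I replicate 2 standing lowest, and the difference was -0.19 (95% interval -0.48 to 0.10; limma adjusted p = 0.58), or -0.059 without T173I replicate 2.

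Glutathione is made by glutamate-cysteine ligase, whose catalytic subunit is Gclc and whose modifier subunit is Gclm, and then by glutathione synthetase, Gss; glutathione reductase, Gsr, regenerates it. Gclm was at 11.30, 11.08 and 11.03 on the T173I arrays, against 10.55, 10.72 and 10.76 on the wild-type arrays. All T173I values lay above all wild-type values, replicate 1 highest, and the 1.38-fold difference of 0.46 (95% interval 0.20 to 0.72) had the lowest unadjusted p of the members (0.0040) and a limma adjusted p of 0.45. Gclc was at 9.67, 9.99 and 9.67 on the T173I arrays, against 9.05, 9.53 and 9.55 on the wild-type arrays. The groups did not overlap here either, with wild-type replicate 1 well below the others, and the difference of 0.40 (95% interval -0.0026 to 0.80) was 0.24 without that array. Gss and Gsr did not follow the ligase: Gss had a difference of -0.032, and Gsr one of -0.18 (95% interval -0.40 to 0.049). Between the ligase and the other enzymes of the branch the sign therefore differed on the means; that contrast was not tested.

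**Figure D2:**
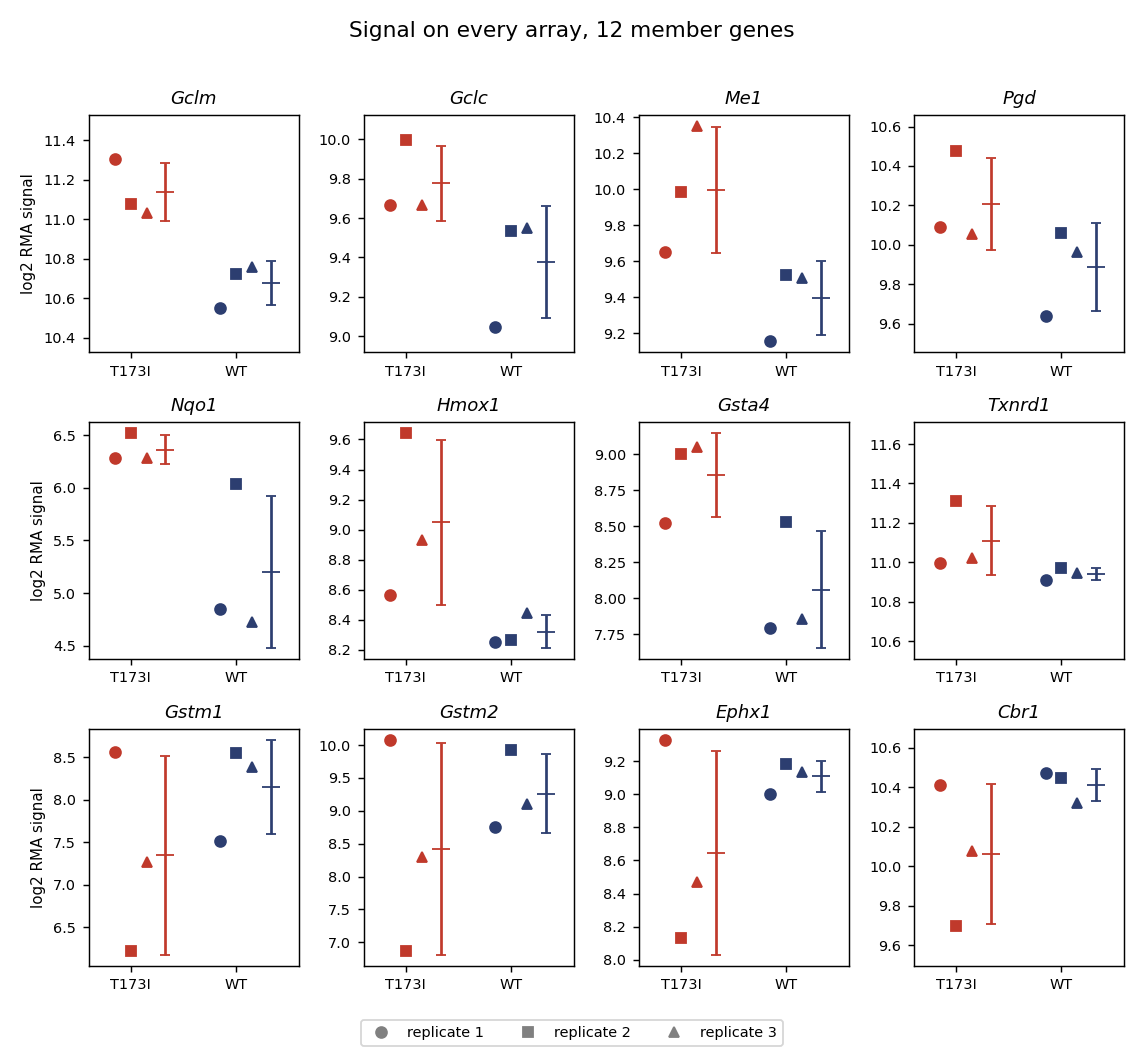
Log2 RMA signal of 12 member genes on each array, T173I left and wild type right in each panel; symbols give the replicate, and bars the mean and SD of 3 arrays. The T173I points lie above the wild-type points for Gclm, Gclc, Me1, Nqo1, Hmox1 and Txnrd1, and T173I replicate 1 lies far above replicates 2 and 3 for Gstm1, Gstm2 and Ephx1.

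NADPH, the electron donor for glutathione and thioredoxin reduction, is supplied by malic enzyme (Me1) and by the pentose phosphate pathway (Pgd, Taldo1). Me1 was at 9.65, 9.98 and 10.35 on the T173I arrays, against 9.16, 9.52 and 9.51 on the wild-type arrays. Every T173I value exceeded every wild-type value, a 1.52-fold difference of 0.60 (95% interval 0.13 to 1.07; limma adjusted p = 0.45). Pgd, the 6-phosphogluconate dehydrogenase, was at 10.09, 10.48 and 10.06 on the T173I arrays, against 9.64, 10.06 and 9.96 on the wild-type arrays. T173I replicate 3 lay just under wild-type replicate 2, so the groups of Pgd overlapped, and the difference was 0.32 (95% interval -0.063 to 0.70), or 0.19 without T173I replicate 2 and 0.20 without wild-type replicate 1. Taldo1, transaldolase, had a difference of -0.0078 (95% interval -0.25 to 0.23). The mean of these 3 genes, relative to the wild-type mean, was 0.13, 0.35 and 0.43 on T173I replicates 1 to 3 and -0.16, 0.091 and 0.065 on wild-type replicates 1 to 3. This branch and that of glutathione synthesis, with 0.18, 0.22 and 0.089 on the T173I arrays and -0.12, 0.081 and 0.040 on the wild-type arrays, were those with 2 or more measured genes in which the array means did not overlap and T173I was higher.

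**Figure D3:**
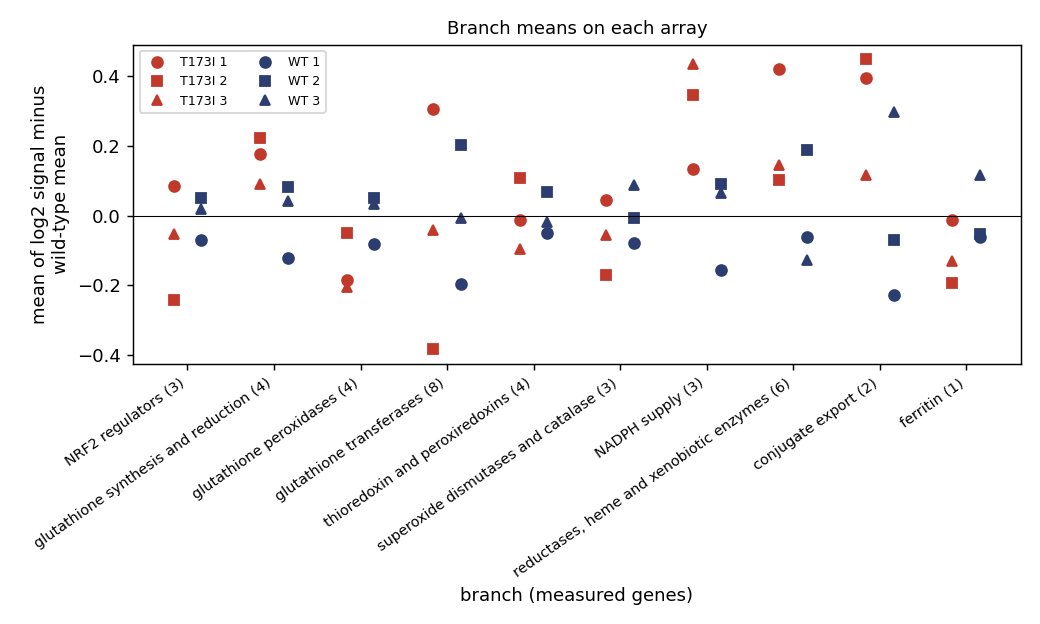
Mean over the measured genes of each branch (number in parentheses) of the log2 signal minus the wild-type mean, for each array, with T173I in red at the left and wild type in blue at the right of each branch. The T173I points of NADPH supply lie at 0.13 to 0.43, above the highest wild-type point at 0.091, while those of the glutathione transferases spread on both sides of the wild-type points.

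Among the reductases and enzymes of heme and xenobiotic breakdown, Nqo1 and Hmox1 had the largest positive differences of their branch. Nqo1, a quinone reductase and a standard readout of NRF2, was at 6.28, 6.52 and 6.28 on the T173I arrays, against 4.85, 6.03 and 4.73 on the wild-type arrays. The T173I arrays were close together and above all wild-type arrays, of which replicate 2 stood well above replicates 1 and 3. Wild-type replicates 1 and 3 lay under the log2 value of 5.37 used to leave out dim genes, and with the dimmest 60% left out Nqo1 was not tested. The difference was 2.23-fold, at 1.16 (95% interval 0.35 to 1.97; limma adjusted p = 0.45), and ranged from 0.92 without wild-type replicate 3 to 1.58 without wild-type replicate 2. Hmox1, heme oxygenase 1, was at 8.57, 9.64 and 8.93 on the T173I arrays, against 8.25, 8.27 and 8.45 on the wild-type arrays. All T173I values were higher and replicate 2 stood highest, with a 1.66-fold difference of 0.73 (95% interval 0.10 to 1.35; limma adjusted p = 0.47) that was 0.43 without T173I replicate 2.

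Other enzymes of this branch went the other way on T173I replicates 2 and 3. Ephx1, the microsomal epoxide hydrolase, described after its values were seen, was at 9.33, 8.13 and 8.47 on the T173I arrays, against 9.00, 9.19 and 9.14 on the wild-type arrays. T173I replicate 1 lay above the wild-type range and replicates 2 and 3 below it, and the difference of -0.46 (95% interval -1.15 to 0.23) became -0.81 when T173I replicate 1 was left out and -0.21 when replicate 2 was. Cbr1, a carbonyl reductase also described after its values were seen, was at 10.41, 9.70 and 10.08 on the T173I arrays, against 10.47, 10.45 and 10.32 on the wild-type arrays. Replicates 2 and 3 were again below the wild-type range while replicate 1 was within it, and both probe sets of Cbr1 gave like differences, -0.35 and -0.34. The first became -0.17 when T173I replicate 2 was left out and -0.52 when replicate 1 was. Blvrb, biliverdin reductase B, and Osgin1, an NRF2-induced growth inhibitor, had differences of 0.11 and 0.15, with T173I replicate 1 above the wild-type range in each.

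The glutathione transferases, which couple glutathione to electrophiles, were the branch with the widest spread, with differences of -0.85 to 0.80. Gstm1 was at 8.56, 6.22 and 7.26 on the T173I arrays, against 7.52, 8.56 and 8.38 on the wild-type arrays. Gstm2 was at 10.08, 6.87 and 8.30 on the T173I arrays, against 8.75, 9.93 and 9.11 on the wild-type arrays. In Gstm2 T173I replicate 1 stood highest of the 6 arrays. In Gstm1 it was level with wild-type replicate 2 at the top (8.559 and 8.555). T173I replicate 2 was lowest in both genes, and the wild-type arrays themselves spread by over 1 log2 unit. The differences were -0.81 (95% interval -2.21 to 0.60) for Gstm1 and -0.85 (95% interval -2.70 to 1.01) for Gstm2, with limma adjusted p of 0.62 and 0.69. Without T173I replicate 1 they were -1.41 and -1.68, and without T173I replicate 2 they were -0.24 and -0.073; Gstm2 was also at -0.51 without wild-type replicate 2. Both genes lie on chromosome 3 and belong to a family of similar sequences, so their probe sets may not read them separately, which was not tested.

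Gsta4, an alpha-class transferase that acts on the lipid peroxidation product 4-hydroxynonenal, was described after its values were seen. Its difference was positive, unlike those of Gstm1 and Gstm2. On T173I replicate 1 all of these genes lay above their wild-type means, by 0.46 for Gsta4, 0.41 for Gstm1 and 0.82 for Gstm2. Among the T173I arrays they parted only on replicates 2 and 3. Gsta4 was at 8.52, 9.00 and 9.05 on the T173I arrays, against 7.80, 8.53 and 7.86 on the wild-type arrays. T173I replicate 1 lay level with wild-type replicate 2, lower by 0.0037, and the other T173I values were above all wild-type values; the difference was 1.74-fold, at 0.80 (95% interval 0.24 to 1.36; limma adjusted p = 0.45). Gsto1, an omega-class transferase chosen in the same way, was at 11.10, 11.85 and 11.81 on the T173I arrays, against 11.52, 11.28 and 11.19 on the wild-type arrays. Its T173I replicate 1 was the lowest of the 6 arrays and replicates 2 and 3 the highest, with a difference of 0.26 over all arrays, 0.50 without T173I replicate 1, 0.12 without replicate 2 and 0.15 without replicate 3. Gstp1, the pi-class transferase, Gstt1, of the theta class, and the membrane-bound Mgst3 had differences of 0.061, 0.022 and 0.15, and the untested Mgst1 one of 0.042.

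Gstm1, Gstm2 and Ephx1 thus had T173I replicate 1 above and replicates 2 and 3 below the wild-type range. These are 3 of 36 members or 8.33%, against 5.18% of all tested genes, and Gstm1 counts only through a near tie with wild-type replicate 2. Gsto1 alone had the reverse, 2.78%, against 3.49%. T173I replicate 1 was above the wild-type range in 16 members (44.4%, against 29.1% of all tested genes) and below it in 7 (19.4%, against 24.8%). T173I replicate 2 was above it in 14 (38.9%, against 31.2%) and below it in 15 (41.7%, against 39.8%), and T173I replicate 3 above it in 12 (33.3%, against 29.7%) and below it in 13 (36.1%, against 33.8%). Over the 38 measured genes the mean relative to wild type was 0.17, -0.022 and 0.019 on T173I replicates 1 to 3 and -0.12, 0.099 and 0.016 on wild-type replicates 1 to 3.

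Of the glutathione peroxidases, which reduce peroxides with glutathione, the 4 members Gpx1 to Gpx4 had differences below 0, of which the 3 tested ones did not pass; Gpx7 and Gpx8, from the wider pathway list, had positive ones of 0.17 and 0.19. Gpx3, the secreted form that the kidney makes for plasma, was at 5.34, 5.39 and 5.00 on the T173I arrays, against 5.44, 5.44 and 5.63 on the wild-type arrays. Its groups did not overlap, by a margin of 0.044, but its signal lay at the edge of the dim genes, and the difference was -0.26 (95% interval -0.56 to 0.046), or -0.14 without T173I replicate 3. With the dimmest 60% left out Gpx3 was not tested. Gpx4, which reduces lipid hydroperoxides in membranes and restrains ferroptosis, was at 8.19, 7.71 and 8.08 on the T173I arrays, against 8.19, 8.38 and 8.16 on the wild-type arrays, a difference of -0.25 (95% interval -0.59 to 0.093), or -0.11 without T173I replicate 2. T173I replicate 2 was lowest and replicate 1 lay within the wild-type range. Gpx1, the cytosolic form, had a difference of -0.012, with T173I replicate 2 highest and replicate 1 lowest of the 6 arrays, and the untested Gpx2 one of -0.065.

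In the thioredoxin system, which reduces protein disulfides and recycles peroxiredoxins, Txnrd1 was the member whose groups did not overlap. Txnrd1, thioredoxin reductase 1, was at 11.00, 11.31 and 11.02 on the T173I arrays, against 10.91, 10.97 and 10.95 on the wild-type arrays. Replicate 2 made most of the difference of 0.17 (95% interval -0.084 to 0.42), which was 0.067 without it. Prdx2, a peroxiredoxin, was at 9.84, 9.52 and 9.67 on the T173I arrays, against 9.94, 9.89 and 9.71 on the wild-type arrays, a difference of -0.17 (95% interval -0.45 to 0.099), or -0.094 without T173I replicate 2. The T173I arrays of Prdx2 overlapped the wild-type arrays through replicate 1 alone. Txn1, thioredoxin, and Srxn1, the sulfiredoxin that repairs over-oxidised peroxiredoxins, had differences of 0.0071 and -0.0048, with intervals of -0.23 to 0.24 and -0.42 to 0.41.

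The superoxide dismutases and catalase had small differences. Sod1, the cytosolic copper-zinc dismutase, was at 11.62, 11.31 and 11.54 on the T173I arrays, against 11.80, 11.72 and 11.56 on the wild-type arrays, a difference of -0.20 (95% interval -0.47 to 0.068), or -0.11 without T173I replicate 2. T173I replicate 1 lay within the wild-type range of Sod1 and replicates 2 and 3 below it. Cat, catalase, was at 12.15, 11.97 and 12.21 on the T173I arrays, against 11.92, 12.10 and 12.27 on the wild-type arrays, with every T173I value inside the wild-type range and a difference of 0.011 (95% interval -0.27 to 0.29) whose sign changed with the array left out. Sod2, the mitochondrial manganese dismutase, had a difference of 0.0069 (95% interval -0.30 to 0.32).

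Conjugates leave the cell through ABC transporters, and both members of this branch had positive differences; of the wider pathway list, Abcc3 and Abcc5 had differences of 0.21 and 0.25 and the untested Abcc2 one of 0.050. Abcc1 was at 9.71, 10.07 and 9.74 on the T173I arrays, against 9.52, 9.50 and 9.72 on the wild-type arrays. Replicates 2 and 3 exceeded the wild-type range and replicate 1 lay below its top by 0.0099, with a difference of 0.26 (95% interval -0.042 to 0.56), or 0.14 without T173I replicate 2. Abcc4 was at 9.22, 8.97 and 8.64 on the T173I arrays, against 8.17, 8.51 and 9.02 on the wild-type arrays. These groups overlapped widely, as the wild-type arrays spread by more than the difference of 0.38 (95% interval -0.20 to 0.96), which became 0.18 and 0.60 when wild-type replicate 1 or 3 was left out and 0.24 when T173I replicate 1 was. Fth1, the ferritin heavy chain that stores iron, was at 12.88, 12.70 and 12.77 on the T173I arrays, against 12.83, 12.84 and 13.01 on the wild-type arrays, a difference of -0.11 (95% interval -0.33 to 0.11), or -0.072 without T173I replicate 2 and -0.055 without wild-type replicate 3.

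**Figure D4:**
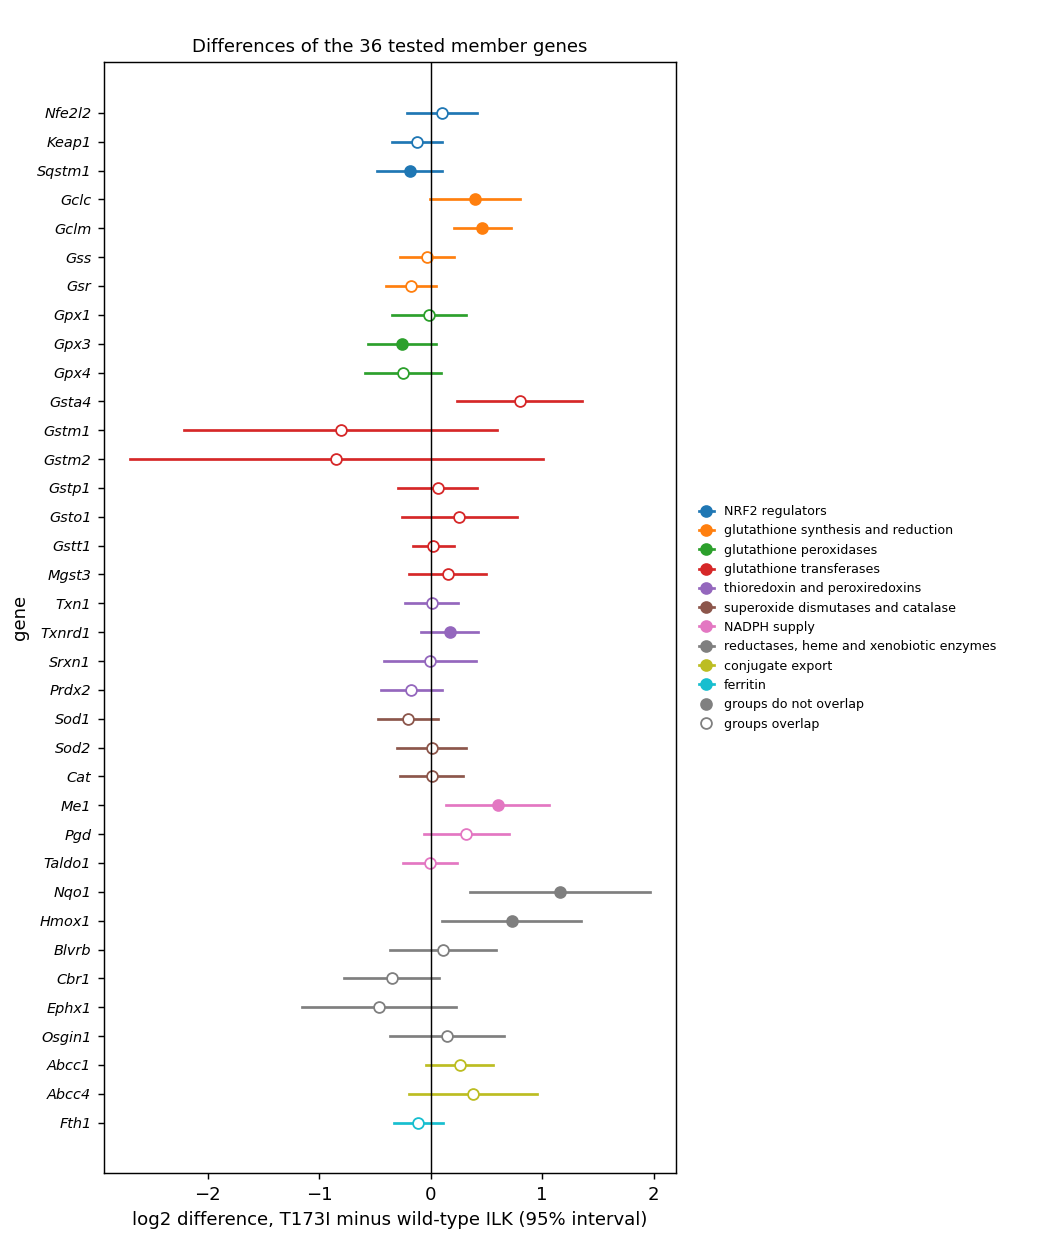
Log2 differences, T173I minus wild-type ILK, of the 36 tested genes with 95% intervals of the limma fit, coloured by branch; filled points mark genes whose groups do not overlap. The intervals of Gclm, Gsta4, Me1, Nqo1 and Hmox1 lie above 0, and those of Gstm1 and Gstm2 are the widest. Nqo1 passed the filter on dim genes only through the T173I arrays, so it had to differ and its interval is no test of it.

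A further 69 genes of the pathway were listed, of which 63 had a probe set of their own and 55 were tested. None passed the adjusted threshold in limma's test (0 higher and 0 lower). Before adjustment, 3 of the 55 had a p under 0.05 in each direction. These shares are close to the 4.88% upward and 5.31% downward of all tested genes. Of the 55, 31 had positive and 24 negative differences, where 47.4% of all tested genes were positive. The median was 0.022, against -0.011 over all tested genes. Bach1, the repressor that competes with NRF2 at Hmox1 and other targets, was at 8.50, 8.16 and 8.34 on the T173I arrays, against 8.90, 8.67 and 8.80 on the wild-type arrays. All T173I values of Bach1 were lower, replicate 1 included, with a difference of -0.46 (95% interval -0.73 to -0.19; limma adjusted p = 0.45). Txnip, which binds and inhibits thioredoxin, was at 11.88, 9.54 and 10.71 on the T173I arrays, against 12.11, 11.91 and 12.12 on the wild-type arrays. The T173I values were lower on replicates 2 and 3 and just below the wild-type range on replicate 1, with a difference of -1.34 (95% interval -2.62 to -0.062; limma adjusted p = 0.49), or -0.75 without T173I replicate 2. Oxr1, a protein of oxidation resistance, had T173I values of 9.91, 9.03 and 9.67, all below the wild-type values of 10.27, 10.03 and 10.19, with a difference of -0.63, or -0.38 without T173I replicate 2.

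The 3 other pathway genes with the smallest unadjusted p in the upward direction encode reductases and a glutathione-degrading enzyme. Nqo2, a quinone reductase related to Nqo1, was at 9.01, 9.29 and 9.37 on the T173I arrays, against 8.94, 8.77 and 8.84 on the wild-type arrays, a difference of 0.37 (95% interval 0.093 to 0.65; limma adjusted p = 0.45). Ptgr1, prostaglandin reductase 1, was at 6.87, 7.04 and 7.31 on the T173I arrays, against 6.74, 6.74 and 6.47 on the wild-type arrays, a difference of 0.42. In both genes every T173I value was above every wild-type value. Chac2, a gamma-glutamylcyclotransferase that breaks down glutathione, was at 8.10, 7.90 and 8.09 on the T173I arrays, against 7.44, 7.57 and 7.96 on the wild-type arrays, with T173I replicate 2 inside the wild-type range and a difference of 0.37. Slc7a11, the cystine carrier that feeds glutathione synthesis, had a difference of 0.76 with overlapping groups (1.15 without T173I replicate 1 and 0.43 without wild-type replicate 1), at 7.04, 8.18 and 8.27 on the T173I arrays and 6.42, 7.13 and 7.67 on the wild-type arrays, and was named after its values were seen.

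**Figure D5:**
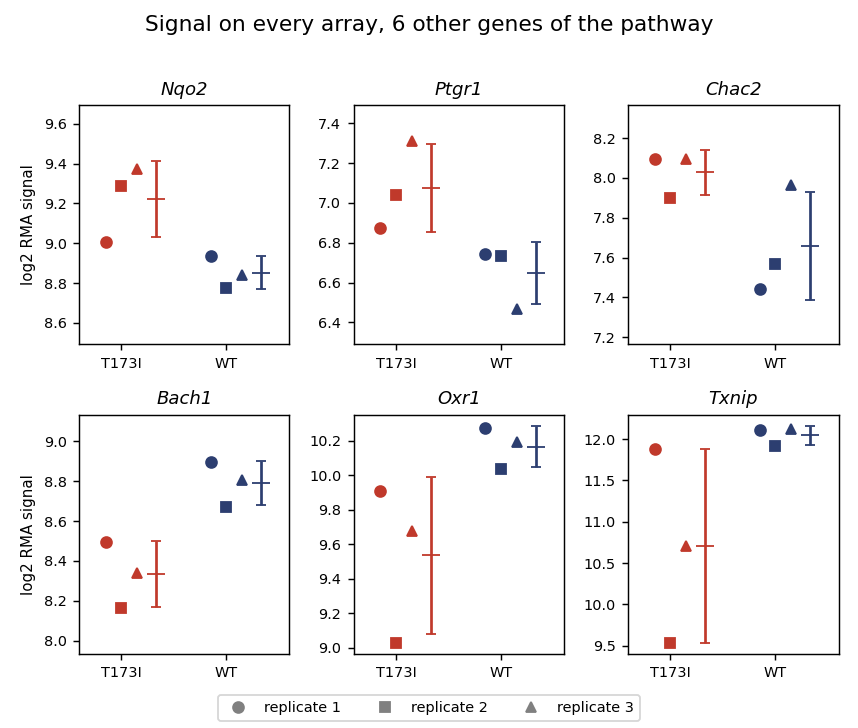
Log2 RMA signal of 6 other genes of the pathway on each array, T173I left and wild type right in each panel; symbols give the replicate, and bars the mean and SD of 3 arrays. The T173I points lie above the wild-type points for Nqo2 and Ptgr1 and below them for Bach1, Oxr1 and Txnip, where T173I replicate 1 is the nearest to the wild type.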

How the data were processed

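Total RNA of 6 samples was amplified and labelled with biotin for 1 Affymetrix array each, per the labels' protocols. The authors deposited log2 values, and the submitters' processing notes name RMA; no version is named. RMA makes the arrays' distributions alike, so a shift of most transcripts one way is hidden. There is no read depth, and precision is limited by having 3 arrays per group. The deposited values span 0.873 to 13.7, as a log2 scale would.

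Of 41345 probe sets the annotation lists 25335, of which 23521 have 1 symbol. The brightest stood for each of 22180 genes, and the dimmest 40% (mean log2 of 5.37 or less) were left out. The groups were compared with limma (version 3.58.1, R 4.3.3; lmFit and eBayes, both directions, no covariate, Benjamini-Hochberg over 13308 genes, threshold 0.05), tested on simulated data. The labels call the arrays biological replicates, and p-values measure the spread between these arrays. An exact test of 3 against 3 cannot go below 0.1.

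The members and lists were chosen with earlier results of these data known. Values on every array were given for Nfe2l2, Keap1, the 2 members of each branch with the largest absolute difference and every member whose groups do not overlap, and for 3 other pathway genes per direction, those of smallest unadjusted p; the text says which others were chosen after their values were seen. Deviations of same-numbered arrays from their group means correlated by 0.049, 0.067 and 0.048, and pairs were not assumed. Alternatives were other filters, another eBayes prior, 2 further normalizations, the mean of a gene's probe sets, weighted arrays, the replicate block and each array left out. Promoter windows and gene names are from RefSeq (GRCm38.p6).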

Additional observations from a re-analysis of the deposited data

How the results depend on the processing

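With the replicate block, 0 members and 0 genes passed the adjusted threshold, as in the fit without it, and the signs of the 20 members named by the rule did not change; the numbers are shared labels and not shown to be pairs. No member passed under any alternative run. Leaving out single arrays gave 0 to 156 genes past the threshold over all genes, the 156 without T173I replicate 1, and 0 members each time. It gave 8 to 20 tested members whose groups do not overlap, or 22.2% to 55.6%, against 21.4% to 39.6% of all tested genes, where fewer arrays make separation easier by construction. The median member difference stayed between -0.016 and 0.052. Of the 20 members, 2 changed sign under some alternative. Keap1 had a difference of 0.074 with the mean of its probe sets, which disagree. Cat, near 0, had -0.0058 with arrays centred on their medians and -0.076 to 0.097 over the fits that leave out an array. The file gives no background signal, so how far dim genes such as Gpx2, Gpx3 and Nqo1 lie above background is unknown.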
